A study of Mus musculus with 6 samples.

Results

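Aminoacyl-tRNA synthetases are the enzymes that join each amino acid to its own tRNA, the step that sets the genetic code, and cells keep one set for the cytosol and another for the mitochondrion, both encoded in the nucleus. The genes described here are 36 listed synthetase genes of 55400 genes in the table, 20 whose products work in the cytosol and 16 whose products work in mitochondria. They were chosen by name and matched to Ensembl identifiers, Mars1 through its older symbol Mars, and all 36 were found and passed the expression minimum of a mean FPKM of 1. FPKM counts fragments per kilobase of exon after scaling to the library's total. The exon length is the deposited one for the whole gene, so levels compare between genes only as far as it fits the transcripts made. As background, inherited changes in several of the cytosolic enzymes, the glycine and tyrosine enzymes among them, cause axonal neuropathies that affect motor neurons. A group of the cytosolic genes is also known to be switched on by ATF4, the transcription factor of the integrated stress response, which acts through a composite C/EBP-ATF element in their promoters, whereas the mitochondrial genes are not known for this.

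The 6 libraries are polyadenylated RNA from motor neuron progenitors made from C57BL/6 mouse embryonic stem cells grown on feeder fibroblasts. Embryoid bodies of 500 cells were started on day 0, received 1 µM retinoic acid and 0.5 µM SAG, an activator of the Sonic hedgehog pathway, from day 2, and were harvested on day 4. The groups, control and Setd5sh, hold 3 libraries each, all of genotype WT in the labels. Both groups are described alike as treated with doxycycline (1 µg/mL) over the last 36 h. Setd5sh reads like a short hairpin against Setd5, a meaning that no label states. The promoter that would drive it, whether control cells carried another hairpin and whether a line was 1 clone are likewise not given. No source states that the replicates were separate cultures, and the spread that p-values are built on may then be technical.

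Total counts ran from 19639303 to 32046466 per library. Setd5 read 22.2, 18.8 and 16.7 FPKM across the control libraries and 14.4, 13.5 and 12.9 across the Setd5sh libraries, with every Setd5sh library below every control library, as in 2.14% of all genes tested. In edgeR its log2 difference, Setd5sh minus control, was -0.51 (standard error 0.16), with an adjusted p of 0.995. An exact permutation test of its log2 FPKM (two-sided) gave p = 0.1, the smallest that 3 against 3 allows. The 6 markers of motor neuron progenitors, such as Olig2 and Nkx6-1, were all above 1 FPKM on average and summed to between 216 and 243 FPKM in control and between 243 and 301 FPKM in Setd5sh. No gene of 12199 passed an adjusted p of 0.05 between the groups in edgeR's quasi-likelihood test (0.0% called), DESeq2 on the same genes also called 0, and 149 genes had an unadjusted edgeR p under 0.05. Group differences of the synthetase genes therefore did not pass in this fit, and differences in log2 level from the edgeR fit, Setd5sh minus control, are given as measured, with their standard error (SE). The 149 genes, 0.615% of all higher and 0.607% lower in Setd5sh, are fewer than this p gives without any difference. Why was not tested, and the number was 963 on leaving out control replicate 3. In simulated data with the dispersions of these libraries the fit recovered 30% of 2-fold changes. Genes were drawn independently there, without deviations that a library shares across genes, so the 30% may not carry over. The largest member difference was 1.54-fold, for Aars, so 0 calls say little about the members. Values of a group are listed in the order of replicates 1, 2 and 3.

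Cytosolic synthetase genes were expressed at higher levels than mitochondrial ones in both groups. Over the 6 libraries the mean level of the cytosolic genes ran from 15.7 FPKM for Eprs, whose product charges both glutamate and proline, to 132 FPKM for Gars, the glycine enzyme, with a median of 42.2 FPKM. The mitochondrial genes ran from 1.52 FPKM for Mars2, the methionine enzyme, to 20.2 FPKM for Lars2, the leucine enzyme, with a median of 7.01 FPKM, against 7.64 FPKM over all genes tested. The genes can be matched by amino acid in 17 combinations, since Eprs faces both Ears2 and Pars2, and Farsa and Farsb, the alpha and beta subunits of the phenylalanine enzyme, both face Fars2. In 16 of the 17 the cytosolic gene had the higher FPKM in every library, and the ratio of the mean levels had a median of 7.12. The highest ratio was 46.1, for Mars1 over Mars2. The lowest was 1.72, for Lars over Lars2, and this pair is the exception, with a ratio between 0.852 and 6.81 across libraries. Mars2 and Eprs, the lowest genes of their sets, also have the longest exonic lengths in them (11294 and 18102 bases, against 3423 for Mars1). How far their rank depends on that length was not tested.

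**Figure D1:**
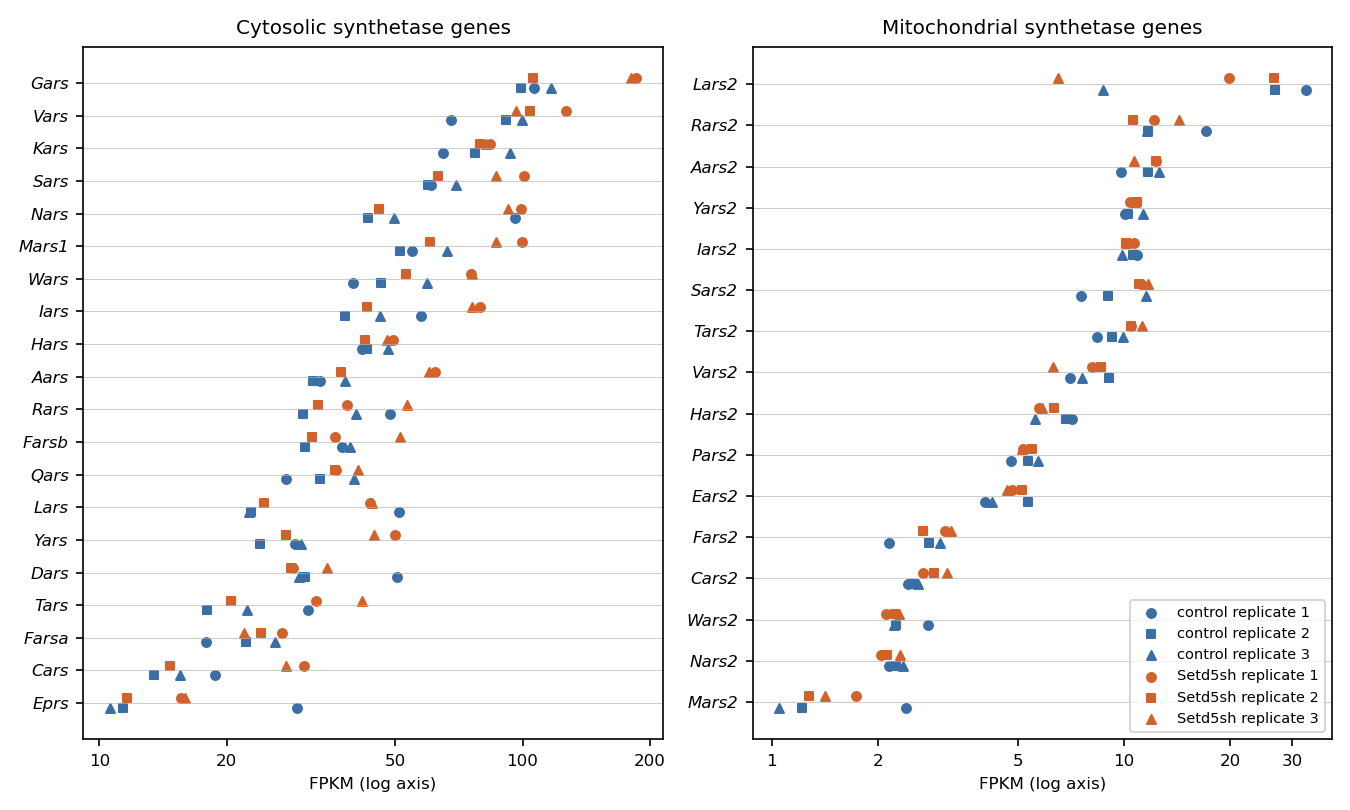
FPKM (log axis) of each of the 20 cytosolic and 16 mitochondrial synthetase genes in each library, 1 point per library, genes ordered by mean level. Control points are blue and Setd5sh points orange, the shape gives the replicate number, and the orange circles and triangles (Setd5sh replicates 1 and 3) lie to the right of the orange squares (Setd5sh replicate 2) in most of the cytosolic genes.

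The glycine and lysine enzymes serve both compartments from single genes. Gars (ENSMUSG00000029777, chromosome 6, from 55038007 to 55079500, plus strand, build mm10) read 106, 99.2 and 116.5 FPKM across the control libraries and 186, 106 and 181 across the Setd5sh libraries. Setd5sh replicates 1 and 3 were above every control library and Setd5sh replicate 2 lay among them. Kars (chromosome 8, from 111993443 to 112011323, minus strand) read 64.8, 77.1 and 93.5 FPKM across the control libraries and 83.8, 79.3 and 81.8 across the Setd5sh libraries, all 3 of the latter inside the control range. The log2 difference was 0.55 (SE 0.23) for Gars and 0.05 (SE 0.16) for Kars, the latter between -0.04 and 0.20 in fits that leave out 1 library each. With an unadjusted p of 0.0496 Gars is 1 of 3 cytosolic members under 0.05 in edgeR, beside an adjusted p of 0.995. An exact permutation test of its log2 FPKM (two-sided) gave p = 0.3, where 0.1 is the smallest that 3 against 3 allows.

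Between the groups, the cytosolic genes mostly had higher levels in Setd5sh and the mitochondrial genes lay on either side of 0. Of the 20 cytosolic genes 18 had a positive log2 difference, beside 42.6% of all genes tested, and the median was 0.32, beside -0.04 over all genes. Of the 16 mitochondrial genes 7 were positive and the median was -0.02. In edgeR 3 cytosolic genes (Aars, Gars and Mars1) and 0 mitochondrial genes had an unadjusted p under 0.05 with the higher level in Setd5sh, beside 0.615% of all genes. None had an unadjusted p under 0.05 in the other direction, beside 0.607%. With the replicate number as a block, 7 cytosolic genes were under 0.05, beside 1.18% of all genes in that fit. The count of 3 rested on single libraries. It became 10 on leaving out control replicate 1 (1.86% of all genes) and 9 on leaving out Setd5sh replicate 2 (1.28%). It became 0 on leaving out control replicate 2 (0.23%), Setd5sh replicate 1 (0.115%) or Setd5sh replicate 3 (0.262%), and was 3 on leaving out control replicate 3 (1.63%). The cytosolic median was lowest, at 0.16, in the fit that left out control replicate 2, and highest, at 0.53, in that which left out Setd5sh replicate 2. It was 0.20 with either Setd5sh replicate 1 or Setd5sh replicate 3 left out. Other tools gave 5 cytosolic genes under 0.05 in DESeq2 (0.853% of all genes) and 1 in limma (0.631%), and edgeR gave 9 with no expression minimum (0.808%). With no minimum 0.248% of all genes passed an adjusted p of 0.05, 0.0611% with the higher level in Setd5sh, and no member was among them.

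**Figure D2:**
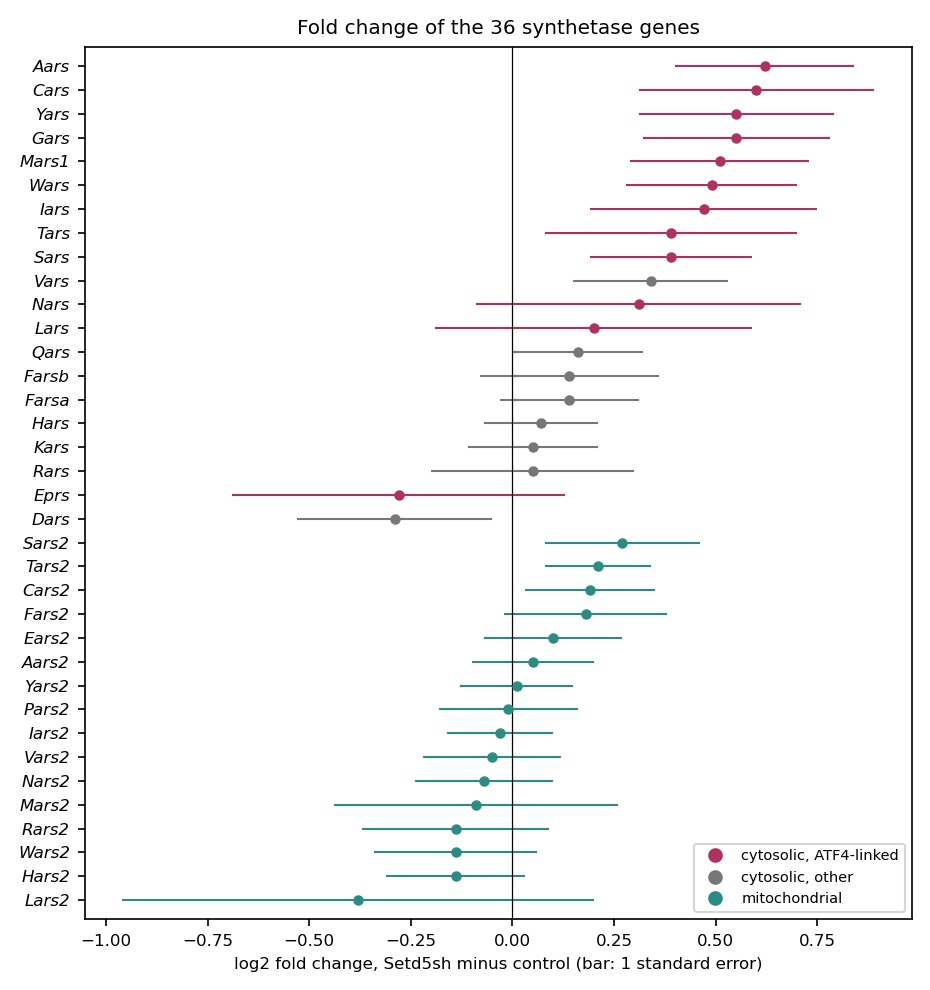
Log2 difference (fold change) of Setd5sh minus control for the 36 synthetase genes, with bars of 1 standard error from edgeR on 3 libraries a group. The cytosolic genes, above, reach from -0.29 for Dars to 0.62 for Aars, and the mitochondrial genes, below, from -0.38 for Lars2 to 0.27 for Sars2.

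The difference was carried unevenly by the libraries. Setd5sh replicate 1 was above every control library in 13 of the 20 cytosolic genes and Setd5sh replicate 3 in 12, whereas Setd5sh replicate 2 was above them in 1 gene, Vars. Over all genes tested the shares were 16.7%, 18.4% and 16.6% for Setd5sh replicates 1, 3 and 2. Control replicate 2 was the lowest of the 6 libraries in 11 of the 20, beside 7.28% of all genes. In consequence the groups overlapped in all 20 cytosolic genes, while 3.07% of all genes had every Setd5sh library above every control library in FPKM. Within libraries of the same number, the Setd5sh library was the higher one in each of the 3 pairs for 11 of the 20 cytosolic and 3 of the 16 mitochondrial genes, beside 12.7% of all genes. No cytosolic gene and 1 mitochondrial gene, Nars2, the asparagine enzyme, were lower in all 3 pairs, beside 12.6% of all genes.

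Among the cytosolic genes, those linked to ATF4 had a higher median than the others. This sub-list of 12 (Aars, Cars, Eprs, Gars, Iars, Lars, Mars1, Nars, Sars, Tars, Wars and Yars) comes from general knowledge of stressed mammalian cells. Like the other lists, it was chosen with earlier results of these data known. It had a median log2 difference of 0.48, with 11 of 12 positive and 10 of 12 higher in all 3 pairs, beside 42.6% and 12.7% of all genes. In the other 8 (Dars, Farsa, Farsb, Hars, Kars, Qars, Rars and Vars) the median was 0.10, 7 were positive and 1, Qars, was higher in all 3 pairs. The difference between the sub-lists was not tested. Setd5sh replicate 1 was above every control library in 10 of the 12 and Setd5sh replicate 3 in 9, against 3 and 3 of the other 8, and Setd5sh replicate 2 in 0 of the 12.

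Averaged over the 12 genes, the log2 level relative to the control mean was 0.31, -0.29 and -0.02 across the control libraries and 0.70, -0.12 and 0.62 across the Setd5sh libraries. Setd5sh replicate 2 lay below control replicates 1 and 3, so the groups overlap, although the difference within equal numbers was above 0 each time, at 0.39, 0.17 and 0.64 for numbers 1, 2 and 3. For the other 8 genes these differences were 0.12, 0.09 and 0.06. For the 16 mitochondrial genes they were -0.04, 0.05 and 0.01. ATF4 pathway genes that are not synthetases followed the same order of libraries with larger differences, at 0.93, 0.25 and 0.84 for numbers 1, 2 and 3 over 15 tested genes of 16 listed. Of those 15, 14 had a positive log2 difference and the median was 0.81. Atf4 itself read 73.1, 58.5 and 77.4 FPKM across the control libraries and 144, 75.8 and 162 across the Setd5sh libraries.

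**Figure D3:**
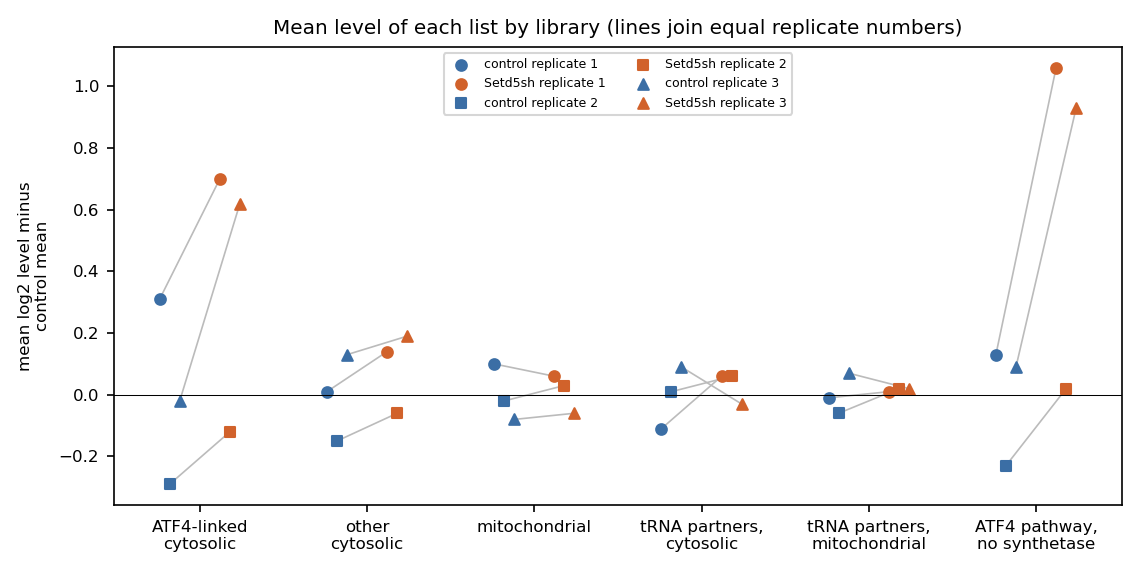
Mean log2 level of 6 gene lists in each library, relative to the mean of the 3 control libraries, with lines joining libraries of the same replicate number. The ATF4-linked cytosolic genes and the other ATF4 pathway genes are high in Setd5sh replicates 1 and 3 (0.70 and 0.62, and 1.06 and 0.93) and near the control libraries in Setd5sh replicate 2 (-0.12 and 0.02), while the mitochondrial genes lie between -0.08 and 0.10 in all 6 libraries.

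Markers of other cell states also differed between these libraries, and no marker of any list was at 0 in every library. The 5 markers of pluripotent stem cells, of which Pou5f1 and Zfp42 were above 1 FPKM on average, summed to 3.34, 13.0 and 2.95 FPKM across the control libraries and 1.66, 9.14 and 0.8 FPKM across the Setd5sh libraries. Both libraries numbered 2 were therefore the high ones for stem cell markers and the low ones within their group for the ATF4-linked synthetases. The 6 neuron markers, of which 4 were above 1 FPKM, summed to between 24.2 and 36.5 FPKM in control and between 39.0 and 70.3 FPKM in Setd5sh, where replicate 2 was the lowest. Tubb3 was the largest part of that sum, with 17.3 to 26.1 FPKM in control and 30.5 to 55.0 in Setd5sh, while Elavl3 and Elavl4 were highest in control replicate 1, and the mean log2 level of the 4 markers overlapped between the groups. The feeder fibroblast markers, with 2 of 6 above 1 FPKM, summed to between 5.27 and 8.38 FPKM in control and between 7.06 and 9.09 FPKM in Setd5sh. Markers of endoderm and mesoderm, with 2 of 6 above 1 FPKM, summed to between 2.60 and 3.55 FPKM in control and between 3.12 and 3.40 FPKM in Setd5sh, and those of the floor plate, with 2 of 3, to between 24.1 and 36.2 FPKM and between 34.1 and 38.5 FPKM. Their part in the synthetase result was not tested, and in bulk RNA fewer cells of a type and less RNA per cell cannot be told apart.

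Aars, the alanine enzyme, had the smallest p of all members. Aars (ENSMUSG00000031960, chromosome 8, from 111033144 to 111057664, plus strand) read 33.3, 31.99 and 38.1 FPKM across the control libraries and 62.2, 37.2 and 60.1 across the Setd5sh libraries. Only control replicate 3 was above the lowest Setd5sh library. The log2 difference was 0.62 (SE 0.22), with an edgeR unadjusted p of 0.0246 and an adjusted p of 0.995, and the exact permutation p was 0.2. Of its 9282 exonic bases 1326 also belong to Exosc6 on the same strand, which was listed at a count of 0 in all 6 libraries.

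Mars1, the methionine enzyme, whose product also loads the tRNA that starts every cytosolic protein, read 54.9, 51.4 and 66.4 FPKM across the control libraries and 99.9, 60.5 and 86.6 across the Setd5sh libraries. Its log2 difference was 0.51 (SE 0.22, range 0.33 to 0.73), with an edgeR unadjusted p of 0.0497 and an exact permutation p of 0.2. Here and below a range is that of the fits that leave out 1 library each. Mars1 (chromosome 10, from 127296221 to 127311786, minus strand) shares 68 exonic bases at its end with the stress gene Ddit3 on the other strand, and whether counting used strand is not known. Ddit3 was low, between 4.39 and 7.49 FPKM.

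The tryptophan and tyrosine enzymes were also highest in Setd5sh replicates 1 and 3. Wars read 39.7, 46.3 and 59.5 FPKM across the control libraries and 75.7, 53.1 and 76.2 across the Setd5sh libraries, a log2 difference of 0.49 (SE 0.21). Yars (chromosome 4, from 129189760 to 129219607, plus strand) read 29.0, 23.9 and 30.02 FPKM across the control libraries and 49.96, 27.6 and 44.5 across the Setd5sh libraries, a log2 difference of 0.55 (SE 0.24, range 0.36 to 0.80). In both genes Setd5sh replicates 1 and 3 were above every control library and replicate 2 was not. The exact permutation p was 0.2 for Wars and 0.3 for Yars.

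Cars, the cysteine enzyme, had the lowest level of these, with 18.7, 13.4 and 15.5 FPKM across the control libraries and 30.4, 14.7 and 27.6 across the Setd5sh libraries, a log2 difference of 0.60 (SE 0.29, range 0.39 to 0.89). Sars, the serine enzyme, whose product also loads the tRNA for selenocysteine, read 60.8, 59.8 and 69.8 FPKM across the control libraries and 101, 63.1 and 86.5 across the Setd5sh libraries, a log2 difference of 0.39 (SE 0.20, range 0.22 to 0.59). Both again had only Setd5sh replicate 2 among the control libraries, and the exact permutation p was 0.3 for Cars and 0.2 for Sars. Vars, the valine enzyme and a member outside the ATF4-linked sub-list, had another order, with 67.8, 91.6 and 99.7 FPKM across the control libraries and 127, 104 and 96.4 across the Setd5sh libraries. There Setd5sh replicate 3 and not replicate 2 lay among the controls, the log2 difference was 0.34 (SE 0.19, range 0.20 to 0.45) and the exact permutation p was 0.2.

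In the remaining ATF4-linked genes control replicate 1 was the highest control library. Eprs read 29.4, 11.4 and 10.6 FPKM across the control libraries and 15.6, 11.7 and 15.9 across the Setd5sh libraries, so that control replicate 1 was the highest of all 6 libraries. Lars, the leucine enzyme, read 51.1, 22.8 and 22.5 FPKM across the control libraries and 43.6, 24.5 and 44.2 across the Setd5sh libraries, and Nars, the asparagine enzyme, read 96.1, 43.2 and 49.6 FPKM in control and 99.3, 45.8 and 92.2 in Setd5sh. These genes were picked for full values after the values were seen, because leaving out 1 library moved them so far. The log2 difference of Eprs was -0.28 (SE 0.41) and became 0.42 without control replicate 1, that of Lars was 0.20 (SE 0.39) and became 0.76, and that of Nars was 0.31 (SE 0.40) and became 0.80. With another library left out they reached down to -0.53 for Eprs (control replicate 3), -0.02 for Lars and 0.08 for Nars (both control replicate 2). Tars and Iars, the threonine and isoleucine enzymes, had log2 differences of 0.39 (SE 0.31) and 0.47 (SE 0.28), and of 0.68 each without control replicate 1. Tars was 0.14 without Setd5sh replicate 3, and Iars 0.30 without Setd5sh replicate 1 and 0.74 without Setd5sh replicate 2. In the fit with the replicate block and without pair 1, which leaves 1 residual degree of freedom, Lars and Tars passed an adjusted edgeR p of 0.05, at 0.55 and 0.56, beside 0.574% of all genes in either direction and 0.246% with the higher level in Setd5sh. In that fit 11 cytosolic genes had an unadjusted p under 0.05, beside 2.06% of all genes.

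The level in control replicate 1 moved with the base composition of the transcripts. Relative to the mean of control replicates 2 and 3, control replicate 1 was 1.5 higher on the log2 scale for Eprs, whose longest transcript has 44.0% GC, and 0.41 lower for Vars, whose longest transcript has 60.9% GC. Across the 36 members this log2 difference had a Pearson correlation of -0.61 with GC content and of 0.40 with log2 exonic length, as a description over genes that share the same 3 libraries. Smooth trends on GC content and length were then removed from each library, a step that by itself takes out most of such a correlation. The correlation with GC was then 0.03 over the 36 members, -0.19 in the cytosolic and 0.28 in the mitochondrial set. Control replicate 1 still lay between -0.49 and 1.05 from the other controls on the log2 scale. Eprs, with the replicate number as a block in addition, had a log2 difference of 0.11. The cytosolic median in that fit was 0.33 and the mitochondrial median 0.06, beside 0.02 over all genes. The 10 cytosolic genes then under an unadjusted p of 0.05 stood beside 3.49% of all genes.

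**Figure D4:**
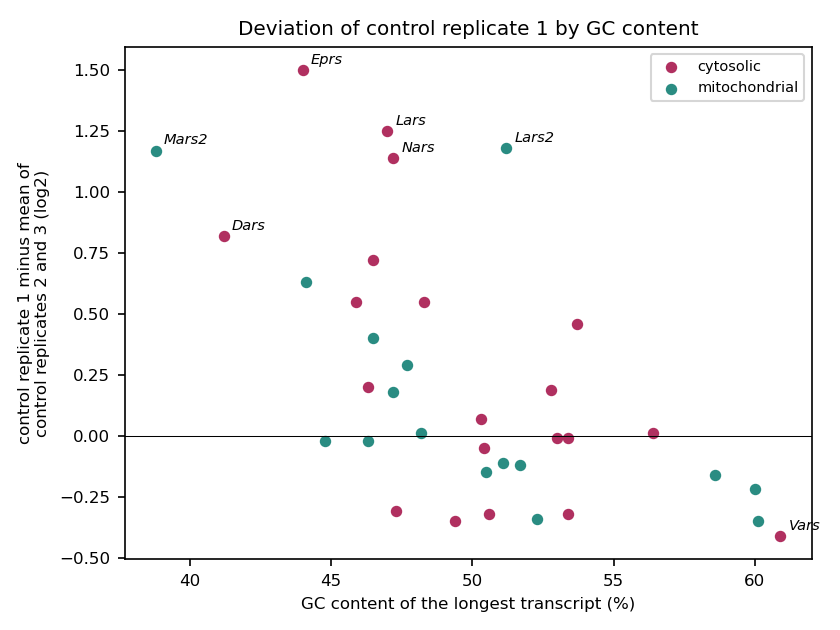
Log2 level of control replicate 1 minus the mean of control replicates 2 and 3, plotted against the GC content of the longest transcript, 1 point per synthetase gene. Low-GC genes such as Mars2, Dars and Eprs lie above 0 and the GC-rich Vars lies at -0.41.

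Of the 8 cytosolic members outside the ATF4-linked sub-list, Dars, the aspartate enzyme, had the most negative value, a log2 difference of -0.29 (SE 0.24, range -0.44 to 0.04). It read 50.4, 30.7 and 29.7 FPKM across the control libraries and 28.6, 28.4 and 34.5 across the Setd5sh libraries, and its value was 0.04 without control replicate 1. The phenylalanine subunits Farsa and Farsb each had a log2 difference of 0.14 (SE 0.17, range 0.04 to 0.28, and SE 0.22, range -0.08 to 0.32). Hars, the histidine enzyme, had one of 0.07 (SE 0.14, range 0.01 to 0.17), Qars, the glutamine enzyme, one of 0.16 (SE 0.16, range 0.07 to 0.30) and Rars, the arginine enzyme, one of 0.05 (SE 0.25, range -0.17 to 0.26). Apart from Dars, whose value exceeded its standard error in size, all of these were smaller than their standard error or about equal to it.

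The multi-synthetase complex binds 8 of the cytosolic enzymes (Dars, Eprs, Iars, Kars, Lars, Mars1, Qars and Rars) around 3 scaffold proteins. The 8 enzyme genes had a median log2 difference of 0.10, with 6 of 8 positive and 3 of 8 higher in all 3 pairs. This median is below the 0.32 of the whole cytosolic set, but it leans on the libraries numbered 1. Averaged over the 8 genes, the differences within equal numbers were -0.06, 0.11 and 0.38 for numbers 1, 2 and 3. With GC and length trends removed they were 0.21, 0.15 and 0.31, beside 0.36, 0.14 and 0.42 for the cytosolic set. Whether the lower median is a trait of the complex was not tested. The scaffold genes Aimp1, Aimp2 and Eef1e1 had log2 differences of 0.00 (SE 0.15, range -0.10 to 0.11), 0.14 (SE 0.25, range -0.06 to 0.43) and 0.05 (SE 0.17, range -0.05 to 0.19), so that each took both signs with 1 library left out. By structural class, the 9 class I genes of the cytosol, whose catalytic domain is a Rossmann fold, were all 9 positive with a median of 0.47. Of the 10 class II genes, built on an antiparallel sheet, 9 were positive with a median of 0.23, beside 42.6% positive over all genes. Eprs, which joins a class I and a class II enzyme in 1 chain, was counted in neither. Cars, Iars, Lars, Mars1, Wars and Yars of class I and Aars, Gars, Nars, Sars and Tars of class II are also in the ATF4-linked sub-list. Class was not separated from that sub-list, and the difference between the classes was not tested.

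Promoter sequences were set beside these values because the ATF4-linked genes stood high in the same libraries. The reference table, from RefSeq on GRCm38.p6, the assembly that mm10 names, holds 300 bases around each start, 250 before and 50 after, for 13 of the cytosolic and 14 of the mitochondrial genes. The motif searched on both strands was TGATGNAA, the core of the C/EBP-ATF element, whose reverse complement is TTNCATCA. It was present in 5 of the 8 ATF4-linked promoters held, in 0 of 5 promoters of other cytosolic genes and in 0 of 15 mitochondrial promoters, 2 of them of Aars2, beside 3.97% of all 32851 promoters. Of the promoters of ATF4 pathway genes outside the synthetases, 4 of 17 (23.5%) held it, a lower share in the list with the larger differences. Since the sub-list was drawn from what is known of ATF4, and ATF4 binds this element, the share is no independent support for the list. Binding was not measured, and a match is not shown to be a site.

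Matches that lie before the RefSeq start are shown, 5′ to 3′ on the gene's strand with the match in capitals, in 120 bases for Gars (chr6:55037881-55038000, plus strand) and Tars (chr15:11399659-11399778, minus strand).
Gars: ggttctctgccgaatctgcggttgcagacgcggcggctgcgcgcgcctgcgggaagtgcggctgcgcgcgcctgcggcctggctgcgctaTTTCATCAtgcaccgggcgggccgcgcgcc
Tars: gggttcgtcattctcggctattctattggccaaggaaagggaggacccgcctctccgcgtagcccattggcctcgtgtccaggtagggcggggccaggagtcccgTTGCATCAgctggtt
Counted from the RefSeq start, the first base of the match is at -30 in Gars and at -15 in Tars.

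In Iars, Yars and Aars a match lies just after the RefSeq start, and 28 bases around it are shown in the same way, from chr13:49682127-49682154, chr4:129189896-129189923 and chr8:111033841-111033868, all on the plus strand.
Iars: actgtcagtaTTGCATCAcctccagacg
Yars: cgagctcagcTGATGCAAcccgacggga
Aars: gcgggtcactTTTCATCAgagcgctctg
In Tars and Iars the match on the other strand reads TGATGCAA, the same 8 bases that Yars carries on its own strand. Gars, with the highest level of all members, and Aars, in the stretch shown, carry TTTCATCA instead. The gene spans given above are from GENCODE, and those of Yars and Aars begin further upstream than the RefSeq start used here.

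No mitochondrial synthetase gene had an unadjusted p under 0.05. Tars2, the threonine enzyme, had the smallest p of the set and read 8.40, 9.26 and 9.91 FPKM across the control libraries and 10.4, 10.4 and 11.2 across the Setd5sh libraries, with the groups apart. Its log2 difference was 0.21 (SE 0.13), with an edgeR unadjusted p of 0.155 and an exact permutation p of 0.1. Cars2, the cysteine enzyme, also had groups that did not overlap, with 2.44, 2.52 and 2.61 FPKM across the control libraries and 2.68, 2.89 and 3.15 across the Setd5sh libraries, a log2 difference of 0.19 (SE 0.16) with an exact permutation p of 0.1. These are 2 of the 16 genes, against the 3.07% of all genes with Setd5sh apart and higher. No mitochondrial or cytosolic gene had Setd5sh apart and lower, beside 2.14% of all genes. Cars2 shares 422 exonic bases with Naxd on the other strand.

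Sars2, the serine enzyme, read 7.53, 8.99 and 11.5 FPKM across the control libraries and 11.2, 11.03 and 11.7 across the Setd5sh libraries, a log2 difference of 0.27 (SE 0.19, range 0.16 to 0.45), and the controls were the more spread group. Fars2, the phenylalanine enzyme, read 2.16, 2.79 and 3.01 FPKM in control and 3.11, 2.69 and 3.23 in Setd5sh, a log2 difference of 0.18 (SE 0.20, range 0.08 to 0.29). The exact permutation p was 0.3 for Sars2 and 0.4 for Fars2. In both genes control replicate 1 was the lowest library, and Fars2 shares 501 exonic bases with Nrn1 on the other strand.

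Lars2 and Mars2 are given in full because their libraries differed most, a choice made after their values were seen. Lars2 read 32.7, 26.8 and 8.74 FPKM across the control libraries and 19.8, 26.6 and 6.49 across the Setd5sh libraries, so that replicate 3 was the lowest library in each group. Its log2 difference was -0.38 (SE 0.58). It became 0.03 on leaving out control replicate 1, 0.01 on leaving out Setd5sh replicate 3 and -0.77 on leaving out control replicate 3. Mars2, with 38.8% GC and an exonic length of 11294 bases, read 2.40, 1.22 and 1.05 FPKM across the control libraries and 1.74, 1.28 and 1.42 across the Setd5sh libraries. As in Eprs, control replicate 1 was the highest library, and the log2 difference went from -0.09 (SE 0.35) to 0.42 without it, and to -0.31 without control replicate 3.

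The other mitochondrial members stayed within 0.14 of 0 on the log2 scale on either side. Yars2, Pars2 and Iars2, the tyrosine, proline and isoleucine enzymes, had log2 differences of 0.01 (SE 0.14, range -0.03 to 0.06), -0.01 (SE 0.17, range -0.04 to 0.05) and -0.03 (SE 0.13, range -0.07 to 0.04). Aars2 and Ears2, the alanine and glutamate enzymes, were at 0.05 (SE 0.15, range -0.01 to 0.13) and 0.10 (SE 0.17, range 0.05 to 0.20), and Vars2 and Nars2, the valine and asparagine enzymes, at -0.05 (SE 0.17, range -0.11 to 0.07) and -0.07 (SE 0.17, range -0.12 to -0.02). Hars2, Rars2 and Wars2, for histidine, arginine and tryptophan, were each at -0.14 (SE 0.17, 0.23 and 0.20), with ranges of -0.23 to -0.03, -0.26 to 0.11 and -0.22 to 0.01. Hars2 and Hars share 195 exonic bases at their adjoining starts on opposite strands, and Iars2 shares 2034 of its 8885 exonic bases with Rab3gap2.

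Compared within each amino acid, the cytosolic gene had the larger log2 difference in 13 of the 17 combinations, with a median difference of 0.38. The difference was 0.63 for tryptophan, 0.60 for methionine, 0.58 for leucine, 0.57 for alanine, 0.54 for tyrosine and 0.50 for isoleucine. It was below 0 for glutamate and proline, at -0.38 and -0.26, which both rest on Eprs, and for the phenylalanine subunits, at -0.04 each. In 8 of the 17 the cytosolic to mitochondrial ratio was larger in Setd5sh in all 3 pairs, and in 0 of the 17 did the ratios of the groups separate. No share over all genes was computed for such ratios, and the combinations that share Eprs or Fars2 are not independent. Neither count can therefore be called high or low. The difference of the medians of the sets was 0.34, and ranged from 0.19 without Setd5sh replicate 3 to 0.50 without Setd5sh replicate 2. No p was computed for it.

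**Figure D5:**
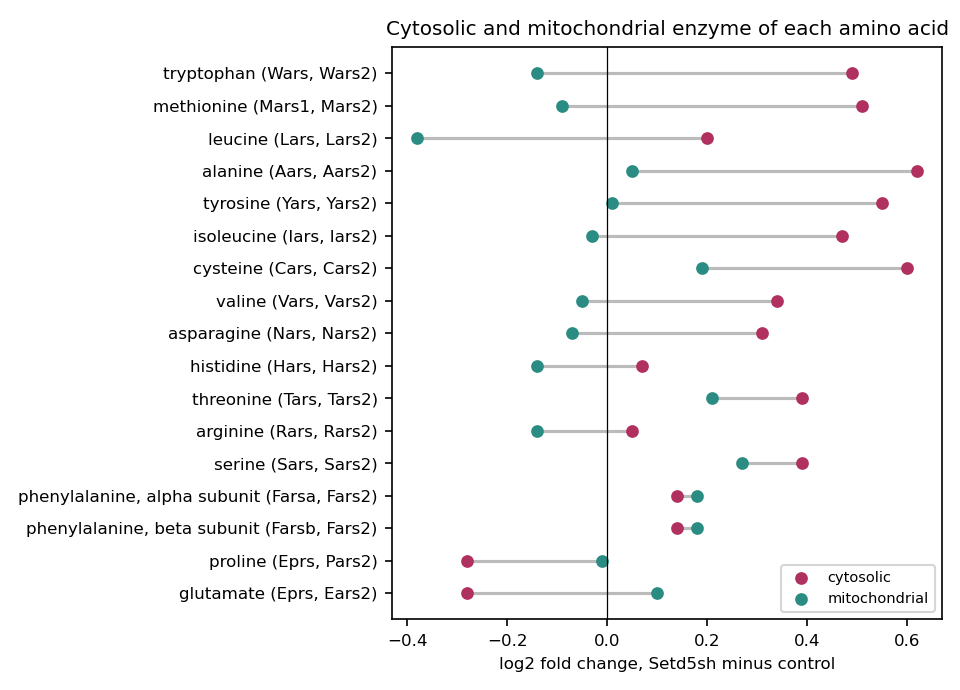
Log2 difference (fold change) of Setd5sh minus control for the cytosolic (red) and the mitochondrial (green) gene of each amino acid, ordered by their difference. The cytosolic gene lies to the right in 13 of 17 combinations, and to the left in those of Eprs, Farsa and Farsb.

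Genes that act beside the synthetases had medians nearer to the -0.04 of all genes than that of the cytosolic synthetase genes. Among 13 cytosolic partners, which include the scaffolds above, genes of the elongation factor that brings charged tRNA to the ribosome, the tRNA exporter Xpot and proofreading deacylases, 9 were positive, 0 had an unadjusted p under 0.05 in edgeR and the median log2 difference was 0.05. The 3 with the smallest p were Tarsl2, a second cytosolic threonine enzyme, at -0.40 (SE 0.23, range -0.57 to -0.25), Eef1d at 0.21 (SE 0.16, range 0.12 to 0.34) and Dtd1 at -0.28 (SE 0.25, range -0.47 to -0.16). Tarsl2 was lower in Setd5sh in all 3 pairs, while Tars was higher in all 3. Among 11 mitochondrial partners, which include the amidotransferase subunits that make glutaminyl-tRNA, the formyltransferase Mtfmt and the elongation factors, 6 were positive, 0 had an unadjusted p under 0.05 and the median was 0.02. Tufm, the mitochondrial elongation factor that carries charged tRNA, was at 0.30 (SE 0.21, range 0.14 to 0.52), Mtfmt at -0.17 (SE 0.17, range -0.20 to -0.11) and Tsfm at 0.16 (SE 0.19, range 0.04 to 0.27).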

How the data were processed

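Per the labels' protocols, libraries came from TRIzol-extracted, poly-T-selected RNA with random-hexamer priming. The authors deposited a table of 55400 Ensembl genes with raw counts, FPKM values and exonic lengths. Tools named in the submitters' processing notes are HISAT2, HTSeq, SAMtools and DESeq2, with build mm10. Their roles, the annotation release and the strand setting are not given. Deposited FPKM equals the count per kilobase and per library total of the same column to within 0.005. GENCODE release M21 gave symbols, positions and GC content (55140 identifiers, 99.5%), and promoters from RefSeq; 1 stretch of promoter sequence is not reported here.

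Genes with a mean FPKM of at least 1 (12199) were tested with edgeR 4.0.16 (quasi-likelihood, TMM) in R 4.3.3, adjusted by Benjamini-Hochberg over all of them, two-sided, threshold 0.05. DESeq2 1.42.0 and limma 3.58.1 on log2(FPKM + 1), other filters and scalings, the replicate block, GC and length offsets (mgcv 1.9.3) and fits without each library were alternatives. Scripts were tested on simulated data. Figures used matplotlib 3.10.9. Members and lists were chosen with earlier results of these data known. Values of every library are given for the 8 cytosolic and 4 mitochondrial members with the smallest p and for Gars and Kars, and for others where stated; of each partner list the 3 genes with the smallest p are named, and of the ATF4 pathway genes Atf4 only.

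Both groups share the replicate numbers 1, 2 and 3. Deviations from group means correlated at 0.183, 0.663 and 0.139 between libraries of equal number, and at 0.166 between control replicate 1 and Setd5sh replicate 3. The first 3 are each above 0.1, but so is the last, which exceeds the 0.139 of number 3. Only number 2 stands apart. The numbers are still treated as pairing the libraries, which is an assumption drawn from the data, since no label states it. No 2 libraries of a group agreed within sampling noise (chi-square per degree of freedom 30.6 or more).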

Additional observations from a re-analysis of the deposited data

How the results depend on the processing

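Every member had a mean FPKM above 1, and the number of libraries, 3 a group, limits the precision. Over all genes, 0 calls became 73 with no filter, 70 with the replicate block without pair 1 (1 residual degree of freedom) and 2 in DESeq2 with the replicate block, and Lars and Tars were the only members called in any fit, in that without pair 1, at 0.55 and 0.56; Atf4 was called with no filter (0.93) and without pair 1 (0.73). The cause was not tested. In edgeR the replicate block alone changed no call over all genes. Cytosolic genes higher with an unadjusted p under 0.05 numbered 3, against 9 with no filter, 6 at a mean FPKM of at least 0.1, 5 in DESeq2, 1 in limma with either pseudocount, 7 with the replicate block in edgeR and in DESeq2, 10 with the block and GC and length trends removed, 11 with the block without pair 1, and 0 to 10 without single libraries. The mitochondrial median moved from -0.02 to 0.06 with the block and GC and length trends removed. The cytosolic and ATF4-linked medians and the difference of medians stayed within 1 SD of the libraries under every alternative run, at 0.16 to 0.53, 0.34 to 0.70 and 0.19 to 0.50 without single libraries. That SD was 0.27 for the cytosolic and 0.38 for the ATF4-linked genes, beside medians of 0.32 and 0.48, so it is a loose bound. For the mitochondrial genes it was 0.08.

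Of 646 single-gene values under the alternatives, 47 turned sign, in 17 genes whose main value was at most 0.38 in size. Without single libraries the log2 fold change ran from -0.44 to 0.04 for Dars, -0.53 to 0.42 for Eprs, -0.08 to 0.32 for Farsb, -0.04 to 0.20 for Kars, -0.02 to 0.76 for Lars, -0.17 to 0.26 for Rars, -0.01 to 0.13 for Aars2, -0.07 to 0.04 for Iars2, -0.77 to 0.03 for Lars2, -0.31 to 0.42 for Mars2, -0.04 to 0.05 for Pars2, -0.26 to 0.11 for Rars2, -0.11 to 0.07 for Vars2, -0.22 to 0.01 for Wars2 and -0.03 to 0.06 for Yars2. With the replicate block without pair 1 the sign turned for Dars (0.06), Eprs (0.32), Farsa (-0.05), Kars (-0.07), Aars2 (-0.06), Mars2 (0.27), Rars2 (0.09) and Wars2 (0.03). With GC and length trends removed, with the block and, as an alternative chosen after seeing the data, without it, the values were 0.11 and 0.10 for Eprs, 0.06 and 0.06 for Iars2, 0.37 and 0.38 for Mars2, 0.06 and 0.05 for Nars2 and 0.01 and 0.01 for Rars2. With no filter Iars2, Pars2 and Vars2 were at 0.04, 0.05 and 0.01, and at a mean FPKM of at least 0.1 Iars2 and Pars2 were at 0.02 and 0.03. Mars2 was at 0.01 with the replicate block, 0.01 in limma with a pseudocount of 0.1 and 0.02 in DESeq2 with the block, the last chosen after seeing the data.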
